A study of Mus musculus with 10 samples.

Results

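St6gal2 and 9 other sialyltransferase genes (St6gal1, St3gal1, St3gal2, St3gal3, St3gal4, St3gal5, St3gal6, St8sia1 and St8sia3) were followed in cortical RNA of 5XFAD mice with and without neuronal deletion of Idol. The 10 genes were found by their Ensembl identifiers among 53700 in the count data, and each symbol matched 1 identifier. The set was chosen by the difference of St6gal2 in CPM between 5XFAD;Neu cKO and 5XFAD libraries, where CPM are read counts scaled to library size, and its relatives were added to it. The fold changes of the 10 genes between the genotypes are therefore given as a description, with no test.

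Sialyltransferases of the Golgi apparatus place sialic acid at the ends of the sugar chains of glycoproteins and gangliosides, using CMP-sialic acid as donor. ST6GAL enzymes attach it to the sixth carbon of galactose, ST3GAL enzymes to the third carbon, and ST8SIA enzymes to the eighth carbon of another sialic acid, which lengthens the chain. Brain is rich in gangliosides, the sialic acid-bearing glycolipids of neuronal membranes, and in sialylated adhesion proteins such as NCAM.

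The RNA came from the cortex of female mice aged 4 months, with 5 libraries labelled 5XFAD;Neu cKO and 5 labelled 5XFAD. All 10 mice carried the 5XFAD transgenes, in which Thy1 regulatory sequence drives mutant human genes of familial Alzheimer's disease in neurons. The 5XFAD;Neu cKO group combines floxed Idol with Camk2a-Cre, a driver active in forebrain excitatory neurons after birth, and the labels give the controls as Camk2a-cre WT with Idol named in the title, so whether they carried the floxed alleles cannot be read from the labels. "Neu" in the group name stands for neurons and not for the sialidase genes Neu1 to Neu4. Idol, whose official symbol is Mylip, encodes a ubiquitin ligase that directs lipoprotein receptors to degradation.

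Each library held 4320504 to 7466192 reads on genes in the 5XFAD group and 5148499 to 7246659 in the 5XFAD;Neu cKO group. Mylip was counted 45 to 108 times per 5XFAD library and 50 to 148 times per 5XFAD;Neu cKO library, that is 11.2 ± 2.27 and 14.8 ± 4.90 CPM (SD, n = 5 each), so the counts of the targeted gene did not separate the genotypes (log2 fold change 0.39, SE 0.25, Benjamini-Hochberg adjusted p = 0.777 in the quasi-likelihood test of edgeR). The sources used here do not say which exons the deletion removes, so 3′ reads on Mylip may lie outside it and check nothing, and 5XFAD;Neu cKO means the libraries so labelled. The libraries also hold other brain cells: summed markers of excitatory neurons ranged from 1960 to 2405 CPM in 5XFAD and from 1938 to 2205 CPM in 5XFAD;Neu cKO, those of microglia from 205 to 293 and from 156 to 182 CPM, and no marker of the 16 cell type and region lists was at 0 in every library. In bulk tissue fewer cells of a type and less RNA per cell cannot be told apart.

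The 3′ libraries give reads only near the end of each transcript, so a CPM value is compared between genes without division by length. St6gal1 and St6gal2, the pair of enzymes that share a linkage, lie on different chromosomes. St6gal2 (ENSMUSG00000024172) spans chr17:55752196-55870507 and St6gal1 (ENSMUSG00000022885) spans chr16:23043460-23179103 of GRCm39, both on the plus strand. The 90-base stretch where their coding sequences are most alike is shown here to make the relatedness of the pair visible. It lies upstream of the stop codon, with 2345 bases of the St6gal2 transcript and 2486 bases of the St6gal1 transcript after that codon, and so away from the 3′ end that the reads cover. It starts at coding position 1129 of St6gal2, at chr17:55805233-55805322 in exon 5 of 7, and at coding position 796 of St6gal1, at chr16:23174959-23175048 in exon 7 of 8. Capitals mark the bases that differ.
St6gal2: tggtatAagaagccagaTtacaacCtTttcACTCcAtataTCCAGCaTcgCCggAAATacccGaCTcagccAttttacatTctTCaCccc
St6gal1: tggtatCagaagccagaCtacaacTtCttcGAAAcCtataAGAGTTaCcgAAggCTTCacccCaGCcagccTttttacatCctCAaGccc
In this stretch 60 of 90 bases matched and 30 differed. Over the 9 pairs of St6gal2 with another member, the longest run of identical bases between the annotated canonical transcripts was 16 bases. Over all 45 pairs of members it was 50 bases, between the whole transcripts of St3gal5 and St8sia1. The coding sequences of that pair matched at 44 of 90 bases where they were most alike. No exon of another annotated gene overlapped an exon of St6gal2, St3gal1 or St3gal2. The other 7 members overlapped exons on the opposite strand, of which only Dcbld2, beside St3gal6, belongs to a protein-coding gene. The strand setting of the counting is not given in the sources used here, so the counts of those 7 genes could include antisense reads.

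The window around the start of St6gal2 is given as the sequence at the 5′ end of the member that the comparison turns on. It holds 250 bases before and 50 after the RefSeq start, as the RefSeq table for GRCm38.p6 lists it, and it matched GRCm39 exactly at 1 place, chr17:55752133-55752432 on the plus strand. The gene span given above, from GENCODE, starts before the RefSeq start, at 55752196. Most of this window therefore lies inside that span. Capitals mark a GC box, the letters GGGCGG.
St6gal2 promoter: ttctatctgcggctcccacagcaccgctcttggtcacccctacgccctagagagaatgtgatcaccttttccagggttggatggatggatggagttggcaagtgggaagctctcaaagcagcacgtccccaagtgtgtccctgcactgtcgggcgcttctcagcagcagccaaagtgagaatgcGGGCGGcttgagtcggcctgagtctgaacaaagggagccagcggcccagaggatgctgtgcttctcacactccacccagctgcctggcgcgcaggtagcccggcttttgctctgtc
The 300 bases are 59.7% G or C and hold 13 CpG dinucleotides, against a median of 7 over 32851 promoters of the same length, 62.1% of which have fewer. Both strands were searched for 4 short motifs. GGGCGG occurred at 1 place, and 35.7% of all promoters hold it. The TATA box, searched as TATAAA, occurred at 0 places and in 13.6% of all promoters. The CCAAT box, searched by those letters, occurred at 0 places and in 37.4%. The core of the cAMP response element, TGACG, occurred at 0 places and in 20.8%. A motif match describes the letters alone.

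The 10 members covered a wide range of abundance. St8sia3, which adds sialic acid to sialylated glycans in brain, was the most abundant, followed by St3gal5, the GM3 synthase that begins the ganglioside series, and by St3gal2, which sialylates terminal galactose of gangliosides and O-glycans. St6gal2 ranked 4 of 10 by mean log2 CPM over the 10 libraries, and St3gal4, which acts on lactosamine ends of glycoproteins, was the least abundant. Of all genes tested, 97.4% had a lower mean CPM than St8sia3, 94.7% a lower one than St3gal5, 74.4% a lower one than St6gal2 and 43.6% a lower one than St3gal4.

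**Figure D1:**
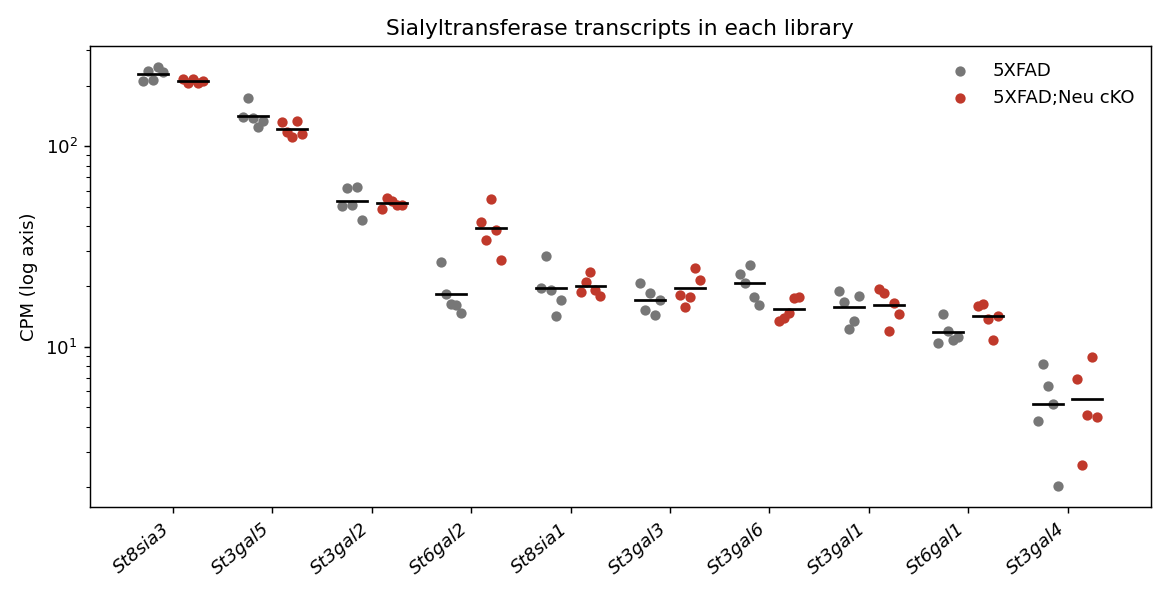
CPM of the 10 sialyltransferases (log axis) in each of 5 5XFAD libraries (grey) and 5 5XFAD;Neu cKO libraries (red), with black bars at the group means and genes in order of mean log2 CPM. St6gal2 is the member whose groups do not overlap, with 14.8 to 26.4 CPM in 5XFAD and 27.0 to 54.7 CPM in 5XFAD;Neu cKO.

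The order of levels was tested between neighbours with an exact two-sided paired permutation test over the 10 libraries, adjusted over the 7 neighbouring pairs without St6gal2. The smallest p that 10 libraries allow is 0.00195. St8sia3 exceeded St3gal5 in 10 of 10 libraries, by 0.75 on the log2 CPM scale (exact permutation test, adjusted p = 0.00456), and St3gal5 exceeded St3gal2 in 10 of 10, by 1.31 (exact permutation test, adjusted p = 0.00456). Below St6gal2, the levels of St8sia1, St3gal3, St3gal6 and St3gal1 followed each other closely. The neighbours among these 4 genes differed by 0.11, 0.03 and 0.16 on the log2 scale, within the spread between libraries (exact permutation test, adjusted p = 0.424, 0.758 and 0.396). St3gal1 exceeded St6gal1 in 9 of 10 libraries, by 0.29 (exact permutation test, adjusted p = 0.0239), and St6gal1 exceeded St3gal4 in 10 of 10, by 1.33 (exact permutation test, adjusted p = 0.00456).

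Within the genotypes the order shifted in its middle. St6gal2 ranked 6 of 10 in the 5XFAD libraries and 4 of 10 in the 5XFAD;Neu cKO libraries, whereas St3gal6 ranked 4 and 8. The 3 most abundant members and the 2 least abundant members held their places in both genotypes.

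ST6GAL genes. St6gal2 was higher in the 5XFAD;Neu cKO libraries than in the 5XFAD libraries and its groups did not overlap. The 5XFAD libraries gave 136, 78, 120, 87 and 66 reads on St6gal2 for replicates 1 to 5, and the 5XFAD;Neu cKO libraries gave 225, 185, 417, 228 and 188. Scaled to library size these are 26.4, 18.3, 16.3, 16.2 and 14.8 CPM in 5XFAD, and 42.1, 34.0, 54.7, 38.4 and 27.0 CPM in 5XFAD;Neu cKO. Replicate 1 stands above the other 4 5XFAD libraries, replicate 3 is the highest of the 5XFAD;Neu cKO libraries, and the lowest 5XFAD;Neu cKO library lies just above the highest 5XFAD library. The fitted log2 fold change was 1.09 (SE 0.18), a 2.14-fold difference, and the coefficient of variation was 25.1% in 5XFAD and 26.3% in 5XFAD;Neu cKO.

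St6gal1, the main enzyme of this linkage in liver and B cells, was the less abundant of the pair in cortex. Replicates 1 to 5 gave 54, 62, 88, 58 and 50 reads on St6gal1 in 5XFAD and 85, 89, 105, 64 and 99 in 5XFAD;Neu cKO, which is 10.5 to 14.5 CPM with a median of 11.2 and 10.8 to 16.4 CPM with a median of 14.2. These groups overlap, with 5XFAD;Neu cKO replicate 4 as low as the lower 5XFAD libraries. The means were 11.8 ± 1.63 and 14.2 ± 2.21 CPM (SD, n = 5 each), a log2 fold change of 0.27 (SE 0.23). The ratio of St6gal2 to St6gal1 reads within a library ran from 1.26 to 2.52 in 5XFAD, with a median of 1.36, and from 1.90 to 3.97 in 5XFAD;Neu cKO, with a median of 2.65. Reads on St6gal2 thus outnumbered those on St6gal1 in every library of both genotypes, and the ratios of the genotypes overlap.

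ST3GAL genes. St3gal5 (ENSMUSG00000056091, chr6:72074329-72131556, plus strand), the most abundant of the 6 ST3GAL members, gave 139, 174, 138, 125 and 133 CPM in the 5XFAD libraries and 132, 117, 111, 133 and 115 CPM in the 5XFAD;Neu cKO libraries. Replicate 2 is the highest 5XFAD library, and the groups overlap between 125 and 133 CPM. The log2 fold change was -0.22 (SE 0.10).

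St3gal6 (ENSMUSG00000022747, chr16:58286438-58344780, minus strand), which acts on lactosamine ends and glycolipids, was the member with the lowest log2 fold change. Its levels were 23.1, 20.9, 25.7, 17.7 and 16.2 CPM in 5XFAD and 13.5, 14.0, 14.7, 17.5 and 17.7 CPM in 5XFAD;Neu cKO. Replicate 5 of 5XFAD lies among the 5XFAD;Neu cKO libraries, replicate 4 is level with the highest of them, and the other three lie above. The means were 20.7 ± 3.87 and 15.5 ± 1.99 CPM (SD, n = 5 each) and the log2 fold change was -0.42 (SE 0.20).

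The remaining ST3GAL members differed by less than 0.2 on the log2 scale. St3gal2 (ENSMUSG00000031749, chr8:111646367-111699497, plus strand) measured 53.5 ± 8.38 CPM in 5XFAD and 51.8 ± 2.55 CPM in 5XFAD;Neu cKO (SD, n = 5 each; log2 fold change -0.05, SE 0.13). St3gal3 (ENSMUSG00000028538, chr4:117789348-117992380, minus strand), which sialylates lactosamine ends of glycoproteins, measured 17.2 ± 2.55 and 19.6 ± 3.48 CPM (log2 fold change 0.19, SE 0.20). St3gal1 (ENSMUSG00000013846, chr15:66974724-67048690, minus strand), which caps core O-glycans, measured 15.9 ± 2.91 and 16.2 ± 3.05 CPM (log2 fold change 0.03, SE 0.21). In each of these the groups overlap and the difference is no larger than its standard error.

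St3gal4 (ENSMUSG00000032038, chr9:34957872-35034889, minus strand) rested on the fewest reads, 9 to 53 per library. It measured 5.22 ± 2.32 CPM in 5XFAD and 5.49 ± 2.46 CPM in 5XFAD;Neu cKO (SD, n = 5 each), and its coefficients of variation were 44.4% and 44.8%. At this depth its log2 fold change of 0.07 carried a standard error of 0.39, the widest of the 10 members, so a difference of the size seen for St3gal5 could not be seen.

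ST8SIA genes. St8sia3 (ENSMUSG00000056812, chr18:64387430-64412682, plus strand) was counted 1011 to 1653 times per library and varied the least of the members, with coefficients of variation of 6.97% in 5XFAD and 2.39% in 5XFAD;Neu cKO. Its levels were 211, 237, 213, 248 and 235 CPM in 5XFAD and 215, 206, 217, 206 and 212 CPM in 5XFAD;Neu cKO. Replicates 1 and 3 of 5XFAD lie among the 5XFAD;Neu cKO libraries and the other three lie above them. The log2 fold change was -0.12 (SE 0.08).

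St8sia1 (ENSMUSG00000030283, chr6:142767271-142910178, minus strand), the GD3 synthase that commits gangliosides to the b series, measured 14.2 to 28.4 CPM in 5XFAD, with a median of 19.3, and 18.0 to 23.5 CPM in 5XFAD;Neu cKO, with a median of 19.2. The 5XFAD;Neu cKO libraries lie within the range of the 5XFAD libraries. The log2 fold change was 0.03 (SE 0.19).

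**Figure D2:**
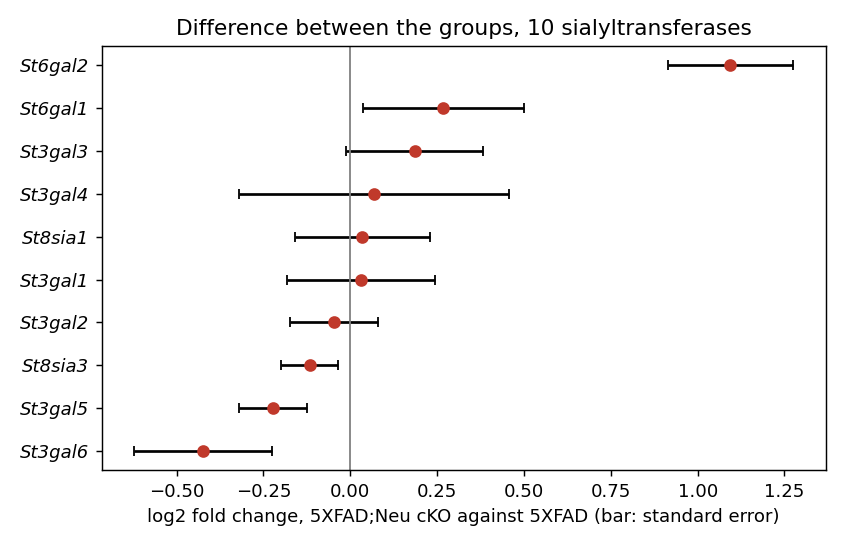
Log2 fold change of each sialyltransferase between 5XFAD;Neu cKO and 5XFAD (horizontal axis; points, estimates of edgeR; bars, standard error; 5 libraries per group). St6gal2 lies at 1.09 and the other 9 members lie between -0.42 and 0.27.

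Of the 10 members, 1 (St6gal2) was past the adjusted p threshold of 0.05, against 0.218% of the 19268 genes tested in either direction, and 1 (again St6gal2) had groups that did not overlap, against 1.30% of all genes in either direction and 0.576% that were higher in 5XFAD;Neu cKO. Nothing is read from these counts, since the same contrast picked the genes. The other 9 members had log2 fold changes on both sides of 0, with 5 higher and 4 lower and a median of 0.03, and the median over all genes tested was -0.00056. A log2 fold change above 0 was found for 49.9% of all genes tested.

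Summed by linkage, the 2 ST6GAL genes gave 30.2 ± 4.53 CPM in 5XFAD and 53.4 ± 10.3 CPM in 5XFAD;Neu cKO (SD, n = 5 each), which is 5.67% and 10.4% of the reads on the 10 members. The 6 ST3GAL genes gave 254 ± 26.1 and 230 ± 14.7 CPM, or 47.6% and 44.7%, and the 2 ST8SIA genes gave 249 ± 16.2 and 231 ± 6.10 CPM, or 46.7% and 44.9%. ST3GAL and ST8SIA genes thus made up most of the members' reads in both genotypes. St6gal2 alone took 2.92% to 5.03% of the members' reads in 5XFAD and 5.46% to 10.5% in 5XFAD;Neu cKO. The sum over all 10 members was 533 ± 35.6 CPM in 5XFAD and 514 ± 15.9 CPM in 5XFAD;Neu cKO, with overlapping ranges. Without St6gal2 the sum ran from 492 to 577 CPM in 5XFAD and from 467 to 488 CPM in 5XFAD;Neu cKO. These ranges lie in the opposite order to those of St6gal2 and only just miss each other, between 488 and 492 CPM. St8sia3 and St3gal5 hold most of the reads in that sum, which was not tested. Each of its 9 genes overlapped between the genotypes on its own, with 5 higher and 4 lower by sign.

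The other genes of sialic acid metabolism were taken from 8 lists of 70 genes, of which 62 had enough reads to be tested. None of them passed the threshold in edgeR's quasi-likelihood test (0 higher and 0 lower, smallest adjusted p = 0.248), against 0.0571% of all genes called higher and 0.161% called lower. DESeq2 called 0 of the 33 to which it gave an adjusted p. It gave none to the other 29, Siglech among them, which has the smallest adjusted p in edgeR. At an unadjusted p under 0.05 there were 6, of which 1 had a log2 fold change above 0 and 5 had one below 0, and 1532 of the 19268 genes tested reached that level. By sign alone 22 of the 62 were higher and 40 lower in 5XFAD;Neu cKO, and their median log2 fold change was -0.07.

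Synthesis and activation of sialic acid had 6 tested genes, 1 higher and 5 lower by sign. Cmas, which makes the CMP-sialic acid that every member uses, measured 94.1 ± 7.20 CPM in 5XFAD and 92.2 ± 6.18 CPM in 5XFAD;Neu cKO (log2 fold change -0.03, SE 0.10). Slc35a1, which carries CMP-sialic acid into the Golgi apparatus, measured 18.3 ± 4.37 and 15.6 ± 3.85 CPM (log2 fold change -0.24, SE 0.21). Neither of these donor supply genes differed by more than the SD between libraries of a group.

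Among the 9 genes of sialidases, sialic acid removal and export, 5 were higher and 4 lower by sign. Neu1, the lysosomal sialidase, measured 51.0 ± 10.2 CPM in 5XFAD and 41.2 ± 4.08 CPM in 5XFAD;Neu cKO (log2 fold change -0.31, SE 0.14, adjusted p = 0.545). Casd1, which acetylates sialic acid, measured 54.6 ± 2.24 and 46.6 ± 7.85 CPM (log2 fold change -0.23, SE 0.13). The 9 tested sialyltransferases outside the members divided into 5 higher and 4 lower by sign. The most abundant of them, St6galnac5 and St6galnac6, which sialylate GalNAc in gangliosides, had log2 fold changes of 0.06 (SE 0.11; 81.3 ± 9.81 and 84.8 ± 11.3 CPM) and 0.18 (SE 0.13; 38.5 ± 3.90 and 43.8 ± 2.24 CPM).

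The acceptor side of the pathway was close to level between the genotypes for N-glycans and more often lower by sign for gangliosides. Of 14 tested genes of N-glycan branching 7 were higher and 7 lower, and Mgat3 and Mgat5, which add the bisecting and a branching GlcNAc, had log2 fold changes of -0.04 and -0.03 (SE 0.12 and 0.11). Of 12 tested genes of ganglioside synthesis and breakdown 2 were higher and 10 lower, with a median of -0.13. B4galt6, a lactosylceramide synthase, measured 153 ± 17.7 and 152 ± 9.23 CPM (log2 fold change -0.0043, SE 0.09), and Psap, the precursor of the saposins that help lysosomal enzymes degrade glycolipids, measured 663 ± 22.3 and 603 ± 48.5 CPM (log2 fold change -0.14, SE 0.07, adjusted p = 0.667).

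Of the 4 O-glycan genes 1 was higher and 3 lower, with C1galt1, which makes the core disaccharide, at a log2 fold change of 0.05 (SE 0.26) and Gcnt2, which branches lactosamine chains, at -0.06 (SE 0.15). The 3 carriers of polysialic acid were all lower by sign, by little: Ncam1, the neural cell adhesion molecule, measured 699 ± 19.7 and 672 ± 54.4 CPM (log2 fold change -0.06, SE 0.07), and Cadm1, a synaptic adhesion molecule, measured 405 ± 42.1 and 383 ± 28.5 CPM (log2 fold change -0.08, SE 0.08).

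The sialic acid binding lectins were the list with the lowest median log2 fold change, -0.28 over 5 tested genes, 1 higher and 4 lower. That median is the value of a single gene, Mag, and some other genes of the list rested on very few reads. Their mean was as low as 0.054 CPM in 5XFAD, so the place of this list is weakly based. Siglech, a microglial gene placed in this list, measured 15.6 ± 5.36 CPM in 5XFAD and 8.78 ± 1.62 CPM in 5XFAD;Neu cKO (SD, n = 5 each). Its log2 fold change was -0.83 (SE 0.25, adjusted p = 0.248 in edgeR's quasi-likelihood test). Summed microglial markers were also lower in 5XFAD;Neu cKO, with 2 of 6 past the threshold and ranges that do not overlap (205 to 293 against 156 to 182 CPM), and their part in the value of Siglech was not tested. Mag, a lectin of myelin that binds gangliosides, measured 109 ± 23.2 and 90.2 ± 19.1 CPM (log2 fold change -0.28, SE 0.12, adjusted p = 0.531), and -0.14 without 5XFAD replicate 2 (adjusted p = 0.942), beside summed oligodendrocyte markers of 1796 to 2643 and 1639 to 2585 CPM. Among the other genes with an unadjusted p under 0.05, Npl and Gm2a were named after their values were seen. Npl, a lyase that breaks sialic acid down, rested on very few reads (0.213 ± 0.310 and 1.59 ± 2.18 CPM), while Gm2a, an activator protein for ganglioside breakdown in lysosomes, had a log2 fold change of -0.33 (SE 0.13).

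**Figure D3:**
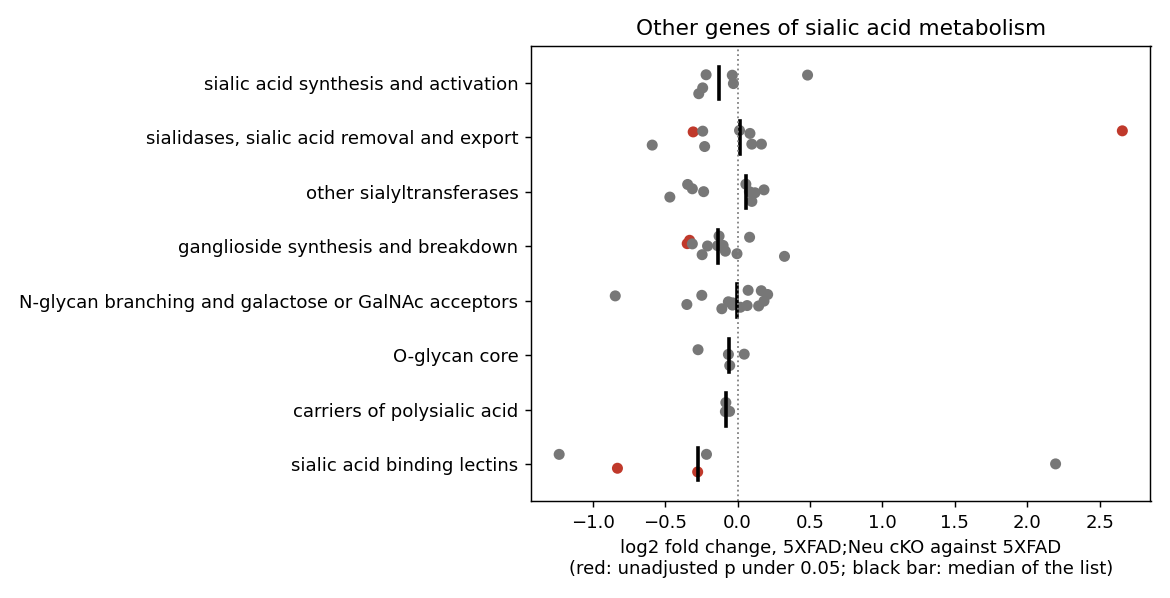
Log2 fold change between 5XFAD;Neu cKO and 5XFAD (horizontal axis) of the 62 tested genes of sialic acid metabolism outside the members, by list (rows). Points are genes, red where the unadjusted p is under 0.05 (6 genes), and black bars are list medians, which lie between -0.28 and 0.06.

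The surroundings of St6gal2 on chromosome 17 were examined because position played no part in choosing it. Within 2 Mb of its start 57 other protein-coding genes were tested, and edgeR's quasi-likelihood test called 0 of them (7 with an unadjusted p under 0.05, smallest adjusted p = 0.351), and DESeq2 called 0 of the 19 to which it gave an adjusted p. Over all genes tested 0.218% were called and 7.95% had an unadjusted p under 0.05, so a count of 0 among 57 genes is near the background. They divided into 28 higher and 29 lower by sign, with a median log2 fold change of -0.00073, and 0 had groups that did not overlap, against 1.30% of all genes. The nearest of them starts 207 kb from the start of St6gal2.

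**Figure D4:**
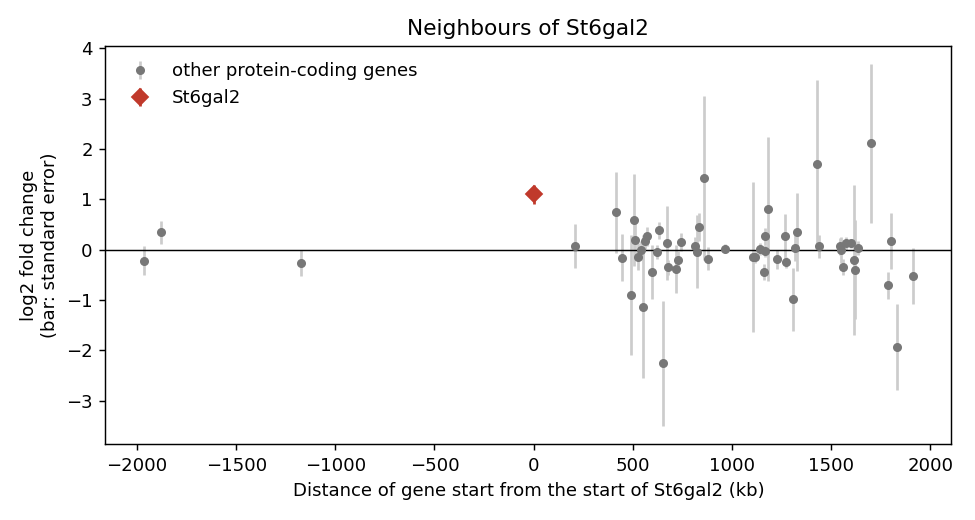
Log2 fold change between 5XFAD;Neu cKO and 5XFAD (vertical axis; bars, standard error) of St6gal2 (red) and 57 protein-coding genes (grey) against the distance of their starts from that of St6gal2 in kb. St6gal2 lies at 1.09, and the neighbours scatter about 0 with a median of -0.00073.

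How St6gal2 varied among libraries of 1 genotype was compared with 11064 genes of at least 5 CPM, using deviations of log2 CPM from the group means over the 10 libraries. These correlations describe 10 libraries that share preparation and depth, and they are given with no test. The most alike were Lhfpl2 (Pearson's r = 0.91, Spearman's rho = 0.83), Nacc2 (0.91 and 0.90), Cep135 (0.91 and 0.83), Creg2 (0.90 and 0.92) and Scarb2 (0.90 and 0.82). The most opposed were Dclre1c (-0.95 and -0.94), Thap2 (-0.95 and -0.88), Ift57 (-0.92 and -0.92), Snhg4 (-0.91 and -0.96) and Ube2d3 (-0.90 and -0.88). Between the genotypes the 5 most alike had log2 fold changes of -0.17 to -0.33, opposite in sign to that of St6gal2. None of the 9 other sialyltransferases was among these genes: their r with St6gal2 ran from -0.22 for St8sia3 to 0.39 for St8sia1.

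Marker lists were set beside St6gal2 in the same way, with no test. Their r was not computed again with a library left out, so how far it depends on single libraries is not known. The within-genotype r was 0.82 for summed thalamus markers, 0.81 for astrocyte markers, 0.68 for endothelial, 0.67 for dentate gyrus and 0.61 for oligodendrocyte markers. It was 0.21 for excitatory and 0.10 for inhibitory neurons and 0.19 for microglia. The lowest values were -0.46 for striatum and -0.43 for choroid plexus markers. Between the genotypes the sums of these lists overlap, except for microglia. Microglial sums ran from 205 to 293 CPM in 5XFAD and from 156 to 182 CPM in 5XFAD;Neu cKO. Thalamus markers summed to 77.0 to 96.1 CPM in 5XFAD and 65.6 to 85.2 CPM in 5XFAD;Neu cKO, and astrocyte markers to 604 to 803 and 576 to 703 CPM. Endothelial markers summed to 120 to 179 and 138 to 165 CPM, and dentate gyrus markers to 18.1 to 34.3 and 16.8 to 24.6 CPM, with median log2 fold changes of 0.03 and 0.02 over their 3 genes each. The part of these cells in the St6gal2 difference was not tested. Of the 5 astrocyte markers 1 was past the threshold, lower in 5XFAD;Neu cKO. Red cell markers were higher in 5XFAD;Neu cKO, with 2 of 4 past the threshold and sums of 5.16 to 45.3 and 41.2 to 179.7 CPM, and their r with St6gal2 within genotypes was 0.28. The part of red cell RNA in the St6gal2 difference was not tested.

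**Figure D5:**
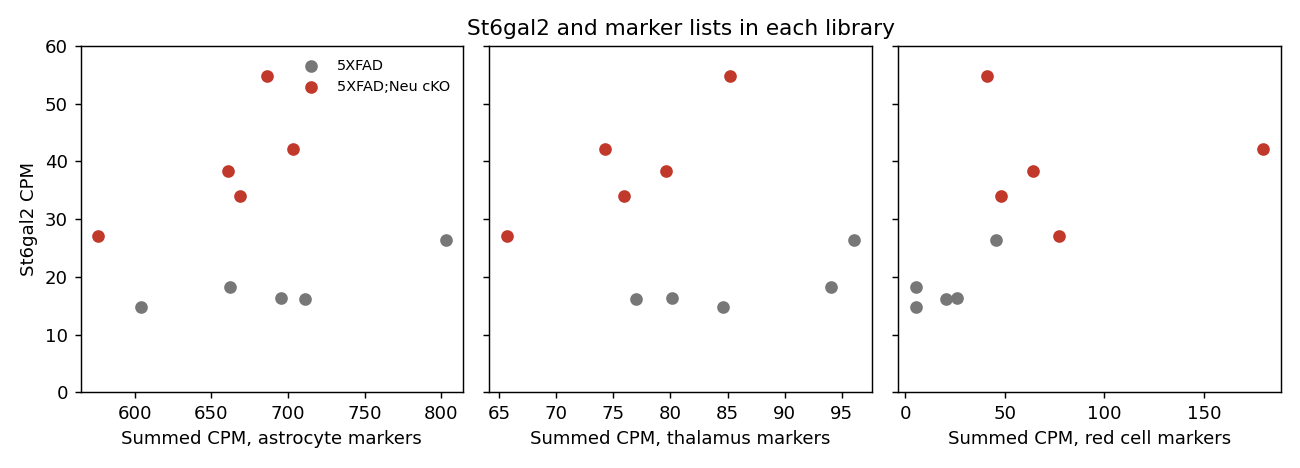
CPM of St6gal2 (vertical axis) against summed CPM of astrocyte (left), thalamus (middle) and red cell (right) markers in each 5XFAD (grey) and 5XFAD;Neu cKO (red) library. Astrocyte and thalamus sums overlap between the genotypes, and red cell sums reach 45.3 CPM in 5XFAD and 179.7 CPM in 5XFAD;Neu cKO. The part of these cells and regions in the St6gal2 difference was not tested.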

How the data were processed

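QuantSeq 3′ libraries were sequenced as single reads. Adapter and poly(A) sequence was trimmed by the authors, who aligned to GRCm39 with STAR and ran htseq-count on Ensembl genes. The deposited values are these counts, whole numbers with no normalization. The submitters' processing notes name STAR 2.7.3a and HTSeq 0.9.1, and the paper gives a later HTSeq version. The authors compared genotypes with DESeq2. Of the reads counted on a gene, on none or on several, between 31.3% and 39.9% fell on none. Reads on none or several were left out of library sizes and fits.

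Symbols and places came from the GENCODE annotation of GRCm39 and promoters from RefSeq. A total over 10 reads was required, and the 19268 genes left were fitted with edgeR 4.0.16 under R 4.3.3 (TMM, glmQLFit and glmQLFTest, genotype only), with Benjamini-Hochberg adjustment and 0.05 as threshold (common biological coefficient of variation, 0.281). CPM use TMM library sizes, and log2 CPM a prior count of 2. Levels were compared with exact sign-flip permutation tests in Python 3.11.15 with numpy 2.4.6. Of these steps, only the edgeR fit was tested on simulated counts. P-values measure the spread between these libraries, 1 per mouse. No pair of libraries of 1 group was as alike as sampling noise gives (chi-square over its degrees of freedom, at least 5.87 in 20 pairs).

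The members and lists were chosen with earlier results of these data known. Named genes were the members, Mylip, the 2 most abundant genes of each pathway list with any past the threshold, and the 5 genes with the highest and the 5 with the lowest r to St6gal2. Alternatives were DESeq2 1.42.0, its size factors, filterByExpr, no low-count filter, robust dispersions, removal of mitochondrial genes, a block for replicate number, fits without each of the libraries, and for likeness Spearman's rho. Some genes of the lists are counted but not reported by name here.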

Additional observations from a re-analysis of the deposited data

Results flagged for a closer look

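Over 52 groups of 5 libraries (the 10 members and 16 named pathway genes in each genotype), 1 value stood far from the others. Mag, the myelin lectin, measured 149.9 CPM in 5XFAD replicate 2, the highest of the 5XFAD libraries, and its gap to the next library was 0.763 of the range of the group. Without that library the log2 fold change of Mag was -0.14 in place of -0.28. Chance alone places about 1 in 20 groups past this limit. For St6gal2 in 5XFAD, replicate 1 (26.4 CPM) lay at 0.698 of the range from its nearest neighbour and was not past it.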

How the results depend on the processing

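St6gal2 had a log2 fold change of 1.09 as reported and stayed between 0.94 (without 5XFAD;Neu cKO replicate 3) and 1.26 (without 5XFAD replicate 1) when libraries were left out. The signs of St3gal1, St3gal2, St3gal4 and St8sia1, all near 0, turned in 4, 2, 3 and 3 of 17 alternatives. The count of all genes past the threshold, 42, was 73 with DESeq2, 103 with no low-count filter, and 26 (without 5XFAD replicate 2) to 72 (without 5XFAD;Neu cKO replicate 1) with a library left out; the cause was not tested. Without 5XFAD;Neu cKO replicate 4 or 5 it was 27. With the replicate number as a block it was 112, and the St6gal2 log2 fold change was 1.09. Replicate numbers were not taken to pair the libraries, as same-numbered libraries correlated at -0.05 to 0.02. Pathway genes past the threshold numbered 0 in all 17 alternatives, though DESeq2 gave an adjusted p to only 33 of the 62 (and to 5820 of all 19268 genes). Of the 10 members, 7 held their place in the order with 5XFAD libraries alone and 8 with 5XFAD;Neu cKO libraries alone. Of the 10 genes most alike or opposed to St6gal2, 3 were shared with Spearman's rho and 1 to 6 with a library left out, so most of those names depend on single libraries. Depth limits St3gal4 most, with 9 to 53 reads per library.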
